A study of Mus musculus with 8 samples.

Results

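Peaks on exons of long non-coding RNAs (lncRNAs) made up 297 of the 29555 peaks in 4 crosslinking and immunoprecipitation (CLIP) libraries from mouse embryonic stem (mES) cells. A peak was taken when the base 15 nt inside its 5′ end lay, on the same strand, in an exon of a GENCODE M21 gene of a lncRNA type (build mm10) and in no exon of a protein-coding transcript. Malat1 and Neat1 were left out. The mouse cells stably overexpressed human MBD5 or human MBD6, methyl-binding domain proteins, each with a 3xFlag tag from a vector selected with hygromycin, and were grown in serum with LIF, CHIR99021 and PD0325901. After crosslinking with ultraviolet light, the tagged protein was recovered and its RNA trimmed with RNase T1, which cuts after G. There were 2 CLIP libraries of Flag-MBD5 and 2 of Flag-MBD6, and the 4 matching input samples are not analysed here as libraries of their own. The comparison asks which lncRNAs crosslinked to each protein, and where along them.

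Many lncRNA genes in this set are host genes, whose introns carry small nucleolar RNAs (snoRNAs) that are cut out of the spliced introns. C/D box snoRNAs guide ribose methylation of ribosomal RNA, H/ACA box snoRNAs guide pseudouridylation, and small Cajal body RNAs (scaRNAs) guide the same changes on spliceosomal RNAs. Other members act as RNAs themselves, such as Meg3, expressed from the maternal chromosome of an imprinted cluster, and Firre, an X-linked nuclear RNA that takes part in organizing chromatin.

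Flag-MBD5 contributed 60 and 59 of these peaks, and Flag-MBD6 contributed 89 from each library. They fell into 99 sites, a site being all overlapping peaks of the 4 libraries on a strand, in 57 genes. Of the 297 peaks, 168 (56.6%) began inside an annotated small RNA, 26 (8.75%) lay in Gm26917 and Gm42418, genes annotated over a ribosomal RNA repeat, and 103 (34.7%) began elsewhere on lncRNA exons. The 3 kinds are given apart below. A site with any peak that began in a small RNA is called a small RNA site.

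Sequences of snoRNAs at which peaks began are shown because most lncRNA peaks began in RNAs of this kind. In the C/D box snoRNAs the capitals mark the C box letters TGATGA and the D box letters CTGA, and in Snora24, an H/ACA box snoRNA, the ACA near the 3′ end. Each is written 5′ to 3′ as in the GENCODE transcript, with its mm10 position and strand.
Snord47 in Gas5 (chr1:161038082-161038158, + strand): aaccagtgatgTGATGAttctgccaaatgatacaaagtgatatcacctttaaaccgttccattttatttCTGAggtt
Snord80 in Gas5 (chr1:161037601-161037681, + strand): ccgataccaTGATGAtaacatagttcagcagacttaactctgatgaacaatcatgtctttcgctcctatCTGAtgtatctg
Gm22680 in Snhg1 (chr19:8725341-8725409, + strand): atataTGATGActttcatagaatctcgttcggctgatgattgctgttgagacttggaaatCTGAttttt
Snord12 in Zfas1 (chr2:167065276-167065365, + strand): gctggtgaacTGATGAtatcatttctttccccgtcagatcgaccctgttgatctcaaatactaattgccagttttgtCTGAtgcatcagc
Snord99 in Snhg12 (chr4:132310691-132310764, + strand): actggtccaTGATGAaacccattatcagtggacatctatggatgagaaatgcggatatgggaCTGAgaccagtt
Snord60 in Rab26os (chr17:24528476-24528553, + strand): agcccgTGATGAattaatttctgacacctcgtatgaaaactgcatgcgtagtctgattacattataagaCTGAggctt
Snord52 in 1110038B12Rik (chr17:34950952-34951017, - strand): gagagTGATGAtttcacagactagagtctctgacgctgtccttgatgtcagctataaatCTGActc
Snora24 in Snhg8 (chr3:123507937-123508066, - strand): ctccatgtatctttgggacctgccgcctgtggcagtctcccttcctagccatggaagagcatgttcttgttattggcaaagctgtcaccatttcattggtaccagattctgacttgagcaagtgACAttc
Snord50b in Snhg5 (chr9:88521797-88521868, - strand): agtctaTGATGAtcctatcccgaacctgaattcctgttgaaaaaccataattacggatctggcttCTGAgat
Gm26135 in 9330159M07Rik (chr9:88857693-88857764, - strand): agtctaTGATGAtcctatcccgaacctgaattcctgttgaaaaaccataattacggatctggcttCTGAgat
Gm23017 in 9430037G07Rik (chr9:88598348-88598419, - strand): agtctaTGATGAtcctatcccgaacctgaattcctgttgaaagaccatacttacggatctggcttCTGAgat
The last 3 are shown because they are near copies. Snord50b and Gm26135 were identical over 72 bases, and Gm23017 matched both at 70 of 72. Reads mapping to up to 10 places were kept and placed once by the authors, so reads from this family cannot be assigned to one host.

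Outside small RNAs, the stretches under the peaks were of another kind. The runs below begin 10 bases before the 5′ end of the peak with the most reads, with 3 exceptions. At Meg3 site 3 and Lncenc1 site 2 the peak began 13 and 10 nt before the exon and the run starts at the exon. At Firre site 4 the run is set on the peak of Flag-MBD6 replicate 1, with 19 reads, and not on that of replicate 2, with 38. Capitals mark each GAAGA, a purine 5-mer. Sites of a gene are numbered from its 5′ end, and a run with no position crosses an exon junction.
Meg3 site 1: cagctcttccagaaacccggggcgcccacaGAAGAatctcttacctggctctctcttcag
Meg3 site 2 (chr12:109544069-109544128, + strand): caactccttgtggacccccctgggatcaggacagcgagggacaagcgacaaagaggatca
Meg3 site 3 (chr12:109549653-109549712, + strand): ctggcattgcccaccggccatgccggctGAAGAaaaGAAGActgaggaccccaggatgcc
Meg3 site 4: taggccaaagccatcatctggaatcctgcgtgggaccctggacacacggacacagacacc
Gm27000 (chrX:88760186-88760245, - strand): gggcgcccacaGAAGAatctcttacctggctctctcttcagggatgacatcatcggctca
Firre site 1 (chrX:50635029-50635088, - strand): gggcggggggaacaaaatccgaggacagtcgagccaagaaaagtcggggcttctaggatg
Firre site 2: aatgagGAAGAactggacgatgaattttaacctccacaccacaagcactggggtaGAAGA
Firre site 3 (chrX:50584740-50584799, - strand): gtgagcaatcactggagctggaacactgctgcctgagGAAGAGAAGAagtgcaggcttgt
Firre site 4: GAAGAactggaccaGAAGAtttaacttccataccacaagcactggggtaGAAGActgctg
Platr14 (chr2:104559771-104559830, + strand): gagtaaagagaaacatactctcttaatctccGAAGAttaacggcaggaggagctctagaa
Platr27 (chr2:157595909-157595968, - strand): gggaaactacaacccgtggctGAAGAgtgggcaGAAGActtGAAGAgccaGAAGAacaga
Lncenc1 site 1 (chr13:97489482-97489541, + strand): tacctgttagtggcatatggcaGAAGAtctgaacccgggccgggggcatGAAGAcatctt
Lncenc1 site 2 (chr13:97494405-97494464, + strand): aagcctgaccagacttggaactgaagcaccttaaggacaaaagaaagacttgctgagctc
Mirg site 2 (chr12:109731284-109731343, + strand): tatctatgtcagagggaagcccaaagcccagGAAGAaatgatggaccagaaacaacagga
Halr1 (chr6:52106785-52106844, + strand): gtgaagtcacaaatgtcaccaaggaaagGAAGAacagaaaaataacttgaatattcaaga
Kcnq1ot1 (chr7:143242156-143242215, - strand): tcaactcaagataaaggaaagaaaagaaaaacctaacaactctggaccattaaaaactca
Meg3 site 1 and the Gm27000 site share a run of 41 bases, and the first 30 nt at Meg3 site 2 also occur in Gm27000 with no mismatch, so reads at these sites could come from either gene. Firre sites 2 and 4, in exons 6 and 17 of a 20-exon transcript, share a run of 23 bases.

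The libraries held 5362 and 5388 peaks (Flag-MBD5) and 9218 and 9587 peaks (Flag-MBD6). Their depths, solved from the deposited statistics, were 478790 and 500143 reads for Flag-MBD5 and 983918 and 1111742 reads for Flag-MBD6, a ratio of 2.14. The libraries of a protein differed by less than sampling noise (chi-square per degree of freedom of 0.496 over 685 sites for Flag-MBD5 and 0.414 over 277 sites for Flag-MBD6). These are reads after identical ones were collapsed and those at a position capped. The labels call the libraries replicates and do not say whether they came from separate cultures. Each protein was counted as 1 sample, both library values are given with no SD, and no test between the proteins was run. Taken as 2 libraries against 2, a two-sided exact permutation test cannot go below p = 0.333. RNA abundance was not measured in these files, so a site on a scarce RNA and a site not bound cannot be told apart.

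LncRNA exons held 1.12% (95% Wilson interval 0.870 to 1.44) and 1.10% (0.85 to 1.41) of Flag-MBD5 peaks, and 0.966% (0.785 to 1.19) and 0.928% (0.755 to 1.14) of Flag-MBD6 peaks. The intervals, which cover counting error only, overlap between the proteins. Beneath the similar shares, the kinds of peak differed. The Flag-MBD5 libraries had 42 and 42 peaks that began in a small RNA and the Flag-MBD6 libraries 43 and 41, while peaks elsewhere on lncRNA exons numbered 12 and 11 against 39 and 41. Without the small RNA, rRNA-derived and pseudogene starts, the Flag-MBD6 minus Flag-MBD5 difference in share turned from -0.16 to 0.20 percentage points.

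**Figure D1:**
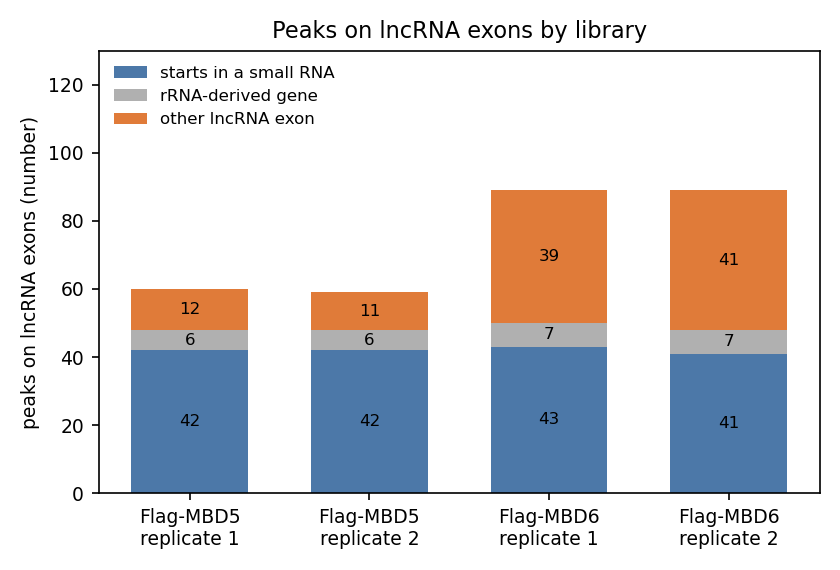
Number of lncRNA exon peaks in each of the 4 CLIP libraries, split by where the peak began. The bars for small RNA starts hold 41 to 43 peaks in every library, and those for other lncRNA exons 11 and 12 in Flag-MBD5 against 39 and 41 in Flag-MBD6.

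LncRNA peaks were found again in the protein's other library more often than coding peaks. So were snoRNA and scaRNA peaks outside lncRNA exons, at 92.7% of 381 for Flag-MBD5 and 94.7% of 413 for Flag-MBD6. For Flag-MBD5, 112 of 119 lncRNA peaks (94.1%, 88.4 to 97.1) recurred, against 74.4% of 8722 coding peaks and 75.2% of all its peaks. For Flag-MBD6, 161 of 178 (90.4%, 85.2 to 94.0) recurred, against 80.3% of 15445 coding peaks and 80.2% of all its peaks. The lncRNA minus coding difference was 18.5 and 21 percentage points with Flag-MBD5, against 7.82 and 12.5 with Flag-MBD6. With 2 proteins, an exact sign permutation test (two-sided) cannot go below p = 0.5, the value it gave. Small RNA starts recurred in 81 of 84 peaks for each protein (96.4%), and other lncRNA starts in 19 of 23 (82.6%, 62.9 to 93.0) for Flag-MBD5 and 66 of 80 (82.5%, 72.7 to 89.3) for Flag-MBD6, where the intervals include the coding share.

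Of the 99 sites, 54 (54.5%) had a peak in all 4 libraries, against 29.5% of all 12074 sites, and 37 (37.4%) had none in either Flag-MBD5 library, against 45.4% of all sites. Split by kind, 39 of the 46 small RNA sites (84.8%, 71.8 to 92.4) were in all 4 libraries, and 9 of the 46 other sites (19.6%, 10.7 to 33.2). No Flag-MBD5 peak was called at 33 of those 46 other sites (71.7%, 57.5 to 82.7). In the other direction, 1 site, a small RNA site in Rian, had a Flag-MBD5 peak and no Flag-MBD6 peak. Taking regions found in both libraries of a protein, 55 of 56 Flag-MBD5 lncRNA regions (98.2%, 90.6 to 99.7) overlapped a Flag-MBD6 region, against 90% of all Flag-MBD5 regions. Conversely, 54 of 81 Flag-MBD6 lncRNA regions (66.7%, 55.9 to 76.0) overlapped a Flag-MBD5 region, against 47.7% of all Flag-MBD6 regions. The Flag-MBD6 share was 38 of 41 (92.7%) at small RNAs and 10 of 33 (30.3%, 17.4 to 47.3) elsewhere. A region takes its kind from that protein's own peaks, so the Flag-MBD6 region at Snora44 in Snhg12, a small RNA site, counts as elsewhere here. Depth differs between the proteins in the same direction and cannot be told apart from the protein.

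The small RNA sites lay mainly in host genes. Of the 46 sites, 42 began in a snoRNA, 2 in a scaRNA, 1 in a small nuclear RNA and 1 in a ribozyme, and 24 lay in an exon of a transcript annotated as a retained intron. Over all 13354 annotated lncRNA genes other than Malat1 and Neat1, 57 held a site (0.427%), 34 with a Flag-MBD5 peak (0.255%) and 57 with a Flag-MBD6 peak (0.427%). Genes looked up by name below are read beside these shares, and their RNA levels were not measured here. Of 24 host genes looked up, 20 have a lncRNA type in the annotation and 11 of them held a site. The number was the same for each protein, and all 11 had a start in a small RNA. Snhg6, Snhg10 and Epb41l4aos held no site but had a peak in every library that did not follow the rule for lncRNA exons. Snhg18 had such a peak in both Flag-MBD5 libraries and in neither Flag-MBD6 library.

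Gas5, a host of C/D box snoRNAs that is itself degraded through translation-coupled decay, had 7 sites, each with a peak in every library and each at a different snoRNA. The gene (ENSMUSG00000053332.13, chr1:161034422-161038539) holds 9 annotated snoRNAs, and no peak began in Gm22357 or Snord78. Gm22357 did lie under the site whose peaks began in Gm22489. At Snord47 (chr1:161038082-161038158), the summit held 71 and 65 reads in Flag-MBD5 and 89 and 75 reads in Flag-MBD6. At Snord80 (chr1:161037601-161037681) it held 114 and 114 reads in Flag-MBD5 and 116 and 129 in Flag-MBD6. At Mir5117, which the annotation types as a snoRNA, the reads were 41 and 43 against 70 and 76. Flag-MBD6 reads were higher at all 3, by log2 ratios of 0.27, 0.10 and 0.80 in turn before scaling for depth. Over all 3566 sites found in every library the median was 0.76, and the log2 ratio of depths was 1.10.

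Snhg1 (ENSMUSG00000108414.1, chr19:8723475-8726443), another host of C/D box snoRNAs, also had 7 sites in every library, in 7 of its 8 annotated snoRNAs. At Gm22680 (chr19:8725341-8725409) the reads were 73 and 75 in Flag-MBD5 and 90 and 82 in Flag-MBD6, and at Snord22 74 and 81 against 90 and 85. At Gm24452 they were 47 and 49 against 83 and 85. Fold enrichment over the local background varied more between libraries than the reads did: at Gm25894 it was 7.77 and 21.8 in the 2 Flag-MBD5 libraries, with 63 and 70 reads over solved backgrounds of 7.24 and 2.25.

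Zfas1, a host of the Snord12 family, had a site at each of its 3 snoRNAs in every library. At Snord12 (chr2:167065276-167065365) the reads were 107 and 104 in Flag-MBD5 and 120 and 119 in Flag-MBD6, and at Gm25878, the site with the second best mean rank of fold in Flag-MBD5, they were 52 and 52 against 55 and 63. At Gm23201 they were 36 and 33 against 33 and 35, the only snoRNA site in Zfas1 where the proteins overlap.

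Snhg12 joined both snoRNA classes. Its 4 annotated snoRNAs each held a peak start, at the C/D box Snord99 (78 and 89 reads in Flag-MBD5, 116 and 108 in Flag-MBD6) and at the H/ACA box Snora44 (92 and 103 against 139 and 147), Snora61 (66 and 67 against 88 and 93) and Snora16a, which had 38 and 39 reads in Flag-MBD6 and no Flag-MBD5 peak. At Snora44 only the peak of Flag-MBD5 replicate 1 began in the snoRNA, and the peaks of the other libraries began before it. Fold enrichment at Snord99 was 20.9 and 28.6 in Flag-MBD5 and 29.1 and 24.1 in Flag-MBD6.

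Among the hosts of H/ACA box snoRNAs, Snora74a in AC121821.1 had the best mean rank of fold enrichment of all lncRNA sites, with 43.2 and 39.8 in Flag-MBD5 and 40.8 and 51.5 in Flag-MBD6, from 77 and 90 against 120 and 135 reads. Snora73a in Snhg3 held 129 and 129 reads in Flag-MBD5 and 189 and 182 in Flag-MBD6. In the library Flag-MBD6 replicate 1 the Snhg3 peak began outside the lncRNA exon and is not a member, but it belongs to the same site. Snora24 in Snhg8 (chr3:123507937-123508066) held 28 and 31 reads in Flag-MBD5 and 51 and 51 in Flag-MBD6. Snora9 in Snhg15 held 28 and 27 against 37 and 43, and Snora26 in Dancr 44 and 39 against 71 and 75. At each of these sites the Flag-MBD6 reads, before scaling for depth, lay above both Flag-MBD5 values. Over all 3566 sites found in every library the median log2 ratio of reads before scaling was 0.76.

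Snhg5 and the 2 genes near it on chromosome 9 carry the copies printed above. The reads were 106 and 108 in Flag-MBD5 and 125 and 113 in Flag-MBD6 at Snord50b, 113 and 94 against 113 and 121 at Gm26135, and 26 and 21 against 40 and 43 at Gm23017. Reads at Snord60 in Rab26os were 103 and 89 against 112 and 113, and at Snord52 in 1110038B12Rik 59 and 70 against 69 and 79. Small RNA types other than snoRNAs were the snRNA Gm24871 in B930036N10Rik (132 and 131 against 200 and 205 reads, its sequence shared with 9 other genes), Scarna3b in CT030161.1 (9 and 17 against 23 and 21), a scaRNA in Snhg20 (31 and 26 against 41 and 59) and Rmrp, the RNA of the RNase MRP ribonucleoprotein (219 and 242 against 257 and 251).

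Rian, the imprinted neighbour of Meg3 that hosts tandem C/D box snoRNAs, had weak sites. Peaks began in 5 of its 13 annotated snoRNAs, 8 of which lie in an exon. Of its small RNA sites, Gm26922 alone had a peak in all 4 libraries, with 11 and 15 reads in Flag-MBD5 and 18 and 19 in Flag-MBD6. AF357425 had a peak in 1 Flag-MBD6 library (16 reads) and Gm24895 in 1 Flag-MBD5 library (16 reads).

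Peaks began close to the 5′ end of C/D box snoRNAs. Searched on the sense strand for TGATGA within the first 20 nt and CTGA within the last 15 nt, 24 of the 42 snoRNAs with a site held both (57.1%), against 305 of all 1507 annotated snoRNAs (20.2%). ACA ending 3 nt before the 3′ end was held by a further 7 (16.7%, against 18% of all), and 11 had neither by these letters, which draws nothing about their class. In the 24, the median peak start lay 1.5 to 50 nt from the annotated 5′ end, with a median over sites of 7.25 nt, and 17 lay within 10 nt. In the 7 ACA box snoRNAs it lay 4 to 69 nt in, with a median of 28 nt, and 1 of the 7 lay within 10 nt. The 24 were 60 to 93 nt long, apart from Scarna10 of 325 nt, and the 7 were 121 to 205 nt long. A small RNA start has its base 15 nt inside in the small RNA, so starts in a short RNA cannot lie as far in. The part of length in the difference was not tested. These are descriptions of few sites, with RNase T1 cutting only after G.

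**Figure D2:**
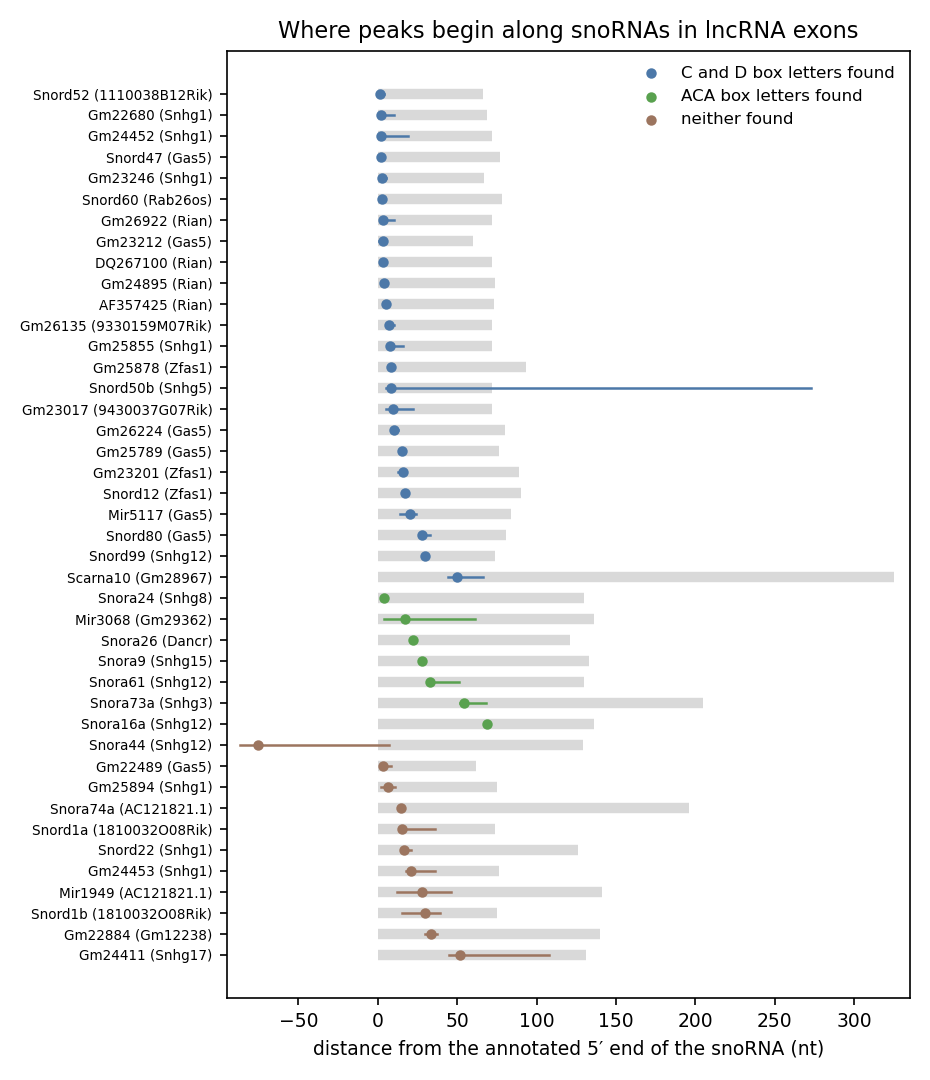
Distance in nt from the annotated 5′ end of each snoRNA to the start of the peaks at that site, for 42 snoRNAs in lncRNA exons. Points are the median over the peaks of the site, coloured lines their range and grey bars the annotated snoRNA. Starts in the 24 snoRNAs with C and D box letters gather near the left end, with a median of 7.25 nt, and those in the 7 with an ACA box are spread along the RNA. Apart from Scarna10, the 24 are shorter than the 7. Peaks at Snora44 mostly began before the snoRNA.

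At the 39 small RNA sites in all 4 libraries, reads at the summit rose by less than the ratio of depths. The depth-scaled log2 ratio of Flag-MBD6 to Flag-MBD5 had a median of -0.66 and ran from -1.12 to -0.13, below zero at each of the 39 sites. Before scaling, the log2 ratio of reads had a median of 0.43, against a log2 ratio of depths of 1.10. Over all 3566 sites in 4 libraries the scaled median was -0.34 (quartiles -0.69 and 0.05), so most of all sites also lay below zero. Over 2856 coding sites it was -0.25 (quartiles -0.62 and 0.13). The 172 snoRNA and scaRNA sites outside lncRNA exons had a scaled median of -0.66 (quartiles -0.88 and -0.40). Among sites with a mean of at least 40 reads, the scaled median was -0.65 at 43 lncRNA sites, -0.32 at 741 coding sites and -0.73 at 96 snoRNA and scaRNA sites elsewhere. Identical reads were collapsed and at most 5 reads kept per position before peaks were called, which limits the reads a short RNA can show. Its part in these values was not tested. None of the 54 lncRNA sites in 4 libraries was over 2-fold higher in Flag-MBD5 in every pair of libraries, against 166 of all 3566 sites (4.66%). None was over 2-fold higher in Flag-MBD6 in every pair, against 0.28% of all sites.

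**Figure D3:**
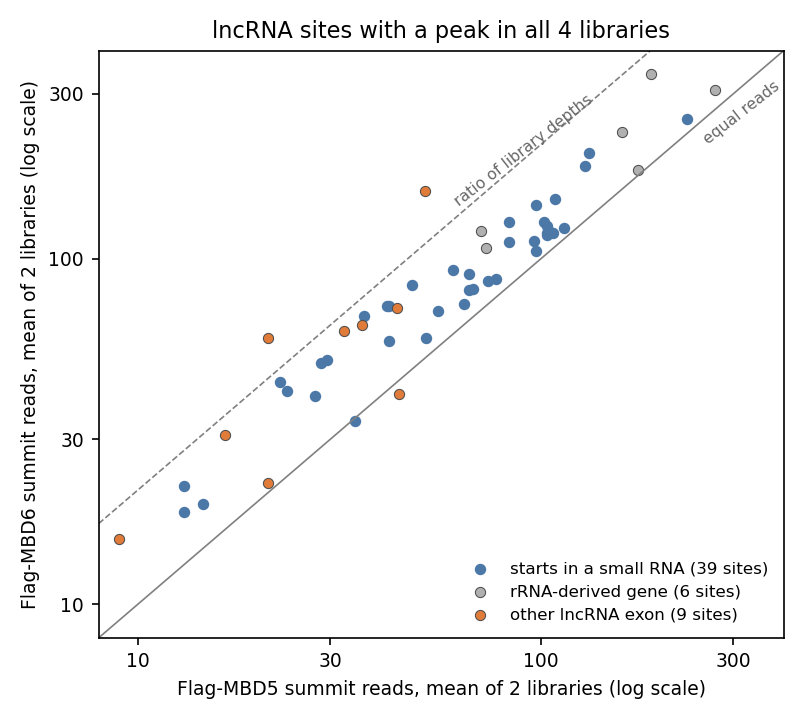
Mean reads at the summit in Flag-MBD5 (x axis) and Flag-MBD6 (y axis), both on log scales, at the 54 lncRNA sites with a peak in all 4 libraries. The solid line marks equal reads and the dashed line the ratio of depths, 2.14. All 39 small RNA sites lie under the dashed line, and of the other sites Meg3 site 3 and Firre site 1 lie above it.

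The 46 sites outside small RNAs and rRNA-derived genes lay in 36 genes, of which RefSeq lists 20 as lncRNA, 3 as protein-coding (Cct6a, 1810058I24Rik and Gm20939), 2 as a pseudogene of either kind, 1 as a snoRNA (Gm22574) and 10 not by that symbol. At 4 of these sites, in Meg3, Rian, 1110038B12Rik and Gm22574, a small RNA listed by GENCODE or RefSeq lay under the peak, although by GENCODE not at its start. At Gm22574 the RefSeq snoRNA is the gene itself, and the peaks began inside it. By RefSeq it would be a small RNA site, but it is counted here among the other sites, including those in all 4 libraries. At 11 of the 46 the window of 30 nt matched another gene within 3 mismatches, most of all Gm20939 (110 genes) and Gm37607 (35 genes).

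Meg3 (ENSMUSG00000021268.17, chr12:109541001-109571726) gave the strongest of these sites. At its site 3 (chr12:109549640-109549895) the summit held 51 and 52 reads in Flag-MBD5 and 154 and 160 in Flag-MBD6, with fold enrichment of 25.8 and 26.6 against 44.8 and 43.8. The Flag-MBD6 libraries lay above the Flag-MBD5 libraries by more than depth, at a scaled log2 ratio of 0.51 that ran from 0.43 to 0.59 over the 4 pairs. At site 4 (chr12:109558243-109558412), with 33 and 32 reads against 53 and 71, the scaled ratio was -0.17, above the median of -0.34 over all sites. Before scaling, the log2 ratio of reads was 1.61 at site 3 and 0.93 at site 4. Site 2, whose sequence Gm27000 shares, held 47 and 55 reads in Flag-MBD6 and had no Flag-MBD5 peak, and site 1 had a peak in Flag-MBD6 replicate 2 alone, of 29 reads.

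Mirg, the microRNA host at the far end of the Meg3 cluster, had 3 sites and none with a Flag-MBD5 peak. Site 2 (chr12:109731294-109731459) held 29 and 24 reads in Flag-MBD6 and site 1 held 15 and 14. Of 8 imprinted lncRNAs looked up, 4 held a site, against 0.427% of all lncRNA genes. They were Meg3, Rian, Mirg and Kcnq1ot1, the last with 18 reads in Flag-MBD6 replicate 2 alone. Meg3, Rian and Mirg lie in the same cluster, and the list was chosen with earlier results of these data known. No site lay in H19, Airn, Peg13 or Nespas, though Nespas had a peak in Flag-MBD6 replicate 2 that did not follow the exon rule. Peaks of 2 of the 4 genes were found with Flag-MBD5 and of all 4 with Flag-MBD6.

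Firre (ENSMUSG00000085396.7, chrX:50555744-50635321) had 4 sites. Site 1, in exon 1 (chrX:50634845-50635078), held 18 and 24 reads in Flag-MBD5 and 49 and 69 in Flag-MBD6, with fold enrichment of 13.6 and 17.6 against 20.3 and 36.9. Its scaled log2 ratio was 0.39, above zero in all 4 pairs (0.05 to 0.72). Sites 2 and 4 had peaks in both Flag-MBD6 libraries (23 and 20 reads, and 19 and 38 reads) and none in Flag-MBD5, and site 3 a peak of 12 reads in 1 library. Of the 5 X-linked lncRNAs looked up, Firre was the only one with a site, against 0.427% of all lncRNA genes. None lay in Xist, Tsix, Jpx or Ftx, though Tsix had a peak in both Flag-MBD6 libraries that did not follow the exon rule.

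Of 40 stem cell and developmental lncRNAs looked up, 34 have a lncRNA type in the annotation and 4 held a site, all 4 with a Flag-MBD6 peak (0.427% of all lncRNA genes) and 1 with a Flag-MBD5 peak (0.255% of all). Platr14, one of the pluripotency-associated transcripts (chr2:104559760-104560044), held 81 and 69 reads in Flag-MBD6 and 13 in Flag-MBD5 replicate 1, with no peak in replicate 2. Its fold enrichment of 38.9 and 30.3 placed it behind only Meg3 site 3 and Snora74a by mean rank in Flag-MBD6. Platr27 held 42 and 47 reads, at 22.0 and 19.5 times the background, and Halr1, transcribed next to the HoxA genes, 15 and 22. Lncenc1, a lncRNA of naive embryonic stem cells, had 2 sites, with 42 and 32 reads at site 1 and 45 and 57 at site 2. None of Platr27, Halr1 and Lncenc1 had a Flag-MBD5 peak. Platr3 in both Flag-MBD6 libraries, and Platr10 in replicate 2 of that protein, had a peak that did not follow the exon rule.

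In all, 19 of these sites had peaks in both Flag-MBD6 libraries and no Flag-MBD5 peak. Their mean Flag-MBD6 reads ran from 13 to 51, and divided by the ratio of depths, from 6.07 to 23.8 with a median of 10.0. The weakest Flag-MBD5 lncRNA peaks, in Rian, had 8 reads over solved backgrounds of 0.402 and 0.483. At equal rates 15 of the 19 would reach 8 reads. A peak call also depends on the local background, which in Flag-MBD6 was 9.34 and 9.30 at Lncenc1 site 2. Reaching 8 reads therefore does not mean that a peak would be called. The 4 that would reach 15 reads were Meg3 site 2, both Lncenc1 sites and Platr27. The part of depth in the missing Flag-MBD5 peaks was not tested.

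Gm42743 had 47 and 42 reads in Flag-MBD5 and 45 and 36 in Flag-MBD6, the lowest scaled log2 ratio of all 54 sites, at -1.22. GENCODE types this gene as a lincRNA and RefSeq does not list it by that symbol. Whether the exon under the peak codes for protein was not tested. Gm22574, listed by RefSeq as a snoRNA, had 20 and 22 against 23 and 22. Gm10076, which the list of widely expressed lncRNAs contributed as its only hit of 8, had 32 and 40 against 59 and 70 reads. The window of its Flag-MBD6 peaks matched 7 other genes, among them the protein-coding gene Rpl41 with no mismatch. RefSeq lists Gm10076 as a pseudogene, and reads at this site could come from those genes. Pvt1, from the same list, had a peak in both Flag-MBD6 libraries that did not follow the exon rule. Of 3 rRNA-derived genes looked up, Gm26917 and Gm42418 held 5 and 2 sites, with 70 to 344 reads at the summit and backgrounds of 10.7 to 91.3. Site 4 of Gm26917, with 251 and 248 reads, was called in Flag-MBD6 alone.

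**Figure D4:**
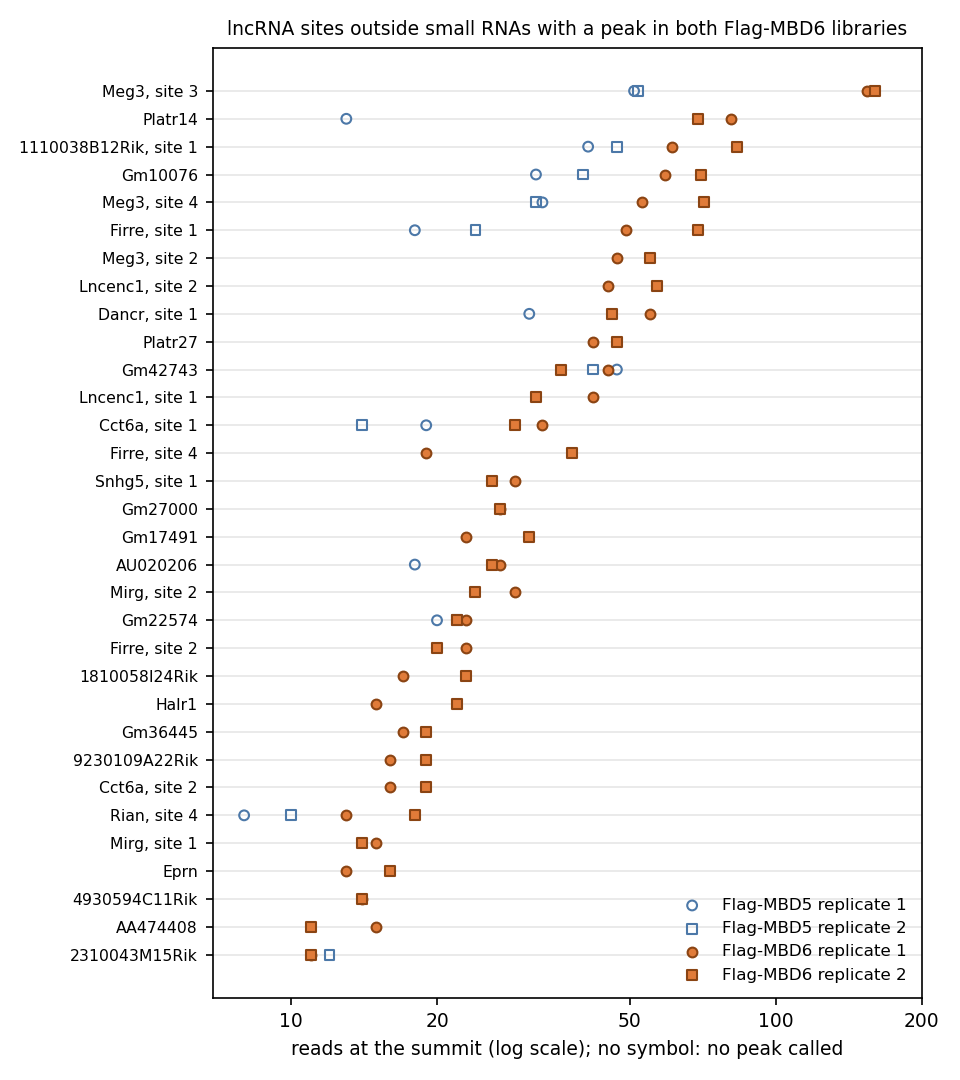
Reads at the summit (log scale) in each library at the 32 lncRNA sites outside small RNAs and rRNA-derived genes with a peak in both Flag-MBD6 libraries. Open symbols are Flag-MBD5 and filled symbols Flag-MBD6, circles replicate 1 and squares replicate 2. Meg3 site 3 leads with 154 and 160 reads in Flag-MBD6, and 19 rows have no open symbol.

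The base before the 5′ end, where RNase T1 is known to leave G, also parted the kinds. G preceded 44.6% (34.4 to 55.3) of Flag-MBD5 and 47.6% (37.1 to 58.2) of Flag-MBD6 peaks that began in a small RNA. It preceded 66.7% (45.4 to 82.8) and 70.7% (59.6 to 79.8) of peaks elsewhere on lncRNA exons, and 83.1% and 73.6% of coding peaks. Over all lncRNA peaks the difference from coding peaks was -34.9 percentage points for Flag-MBD5 and -17.5 for Flag-MBD6. T preceded 30.1% and 20.7% of small RNA starts and 2.28% and 3.57% of coding starts. A made up 26.7% and 26.3% of the first 30 nt at small RNA starts, 34.0% and 37.0% at other lncRNA starts and 37.6% and 38.6% at coding starts.

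The purine 5-mer GAAGA was chosen after the runs printed above were seen. It lay in the 50 nt from the 5′ end at 28 of 45 sites (62.2%) that held an other lncRNA start with a full window. By peak the share was 20% of 20 in Flag-MBD5 (8.07 to 41.6) and 56.2% of 73 in Flag-MBD6 (44.8 to 67.0). Coding peaks held it in 55.5% of 8558 and 61.8% of 14938 windows. Small RNA starts held it in 13.3% of 83 and 13.4% of 82. Windows of the same length tiled every 10 nt held it in 9.59% of 18732 along the same lncRNAs and in 12.2% along coding genes with a peak. The other lncRNA peaks of Flag-MBD6 resembled coding peaks in these letters and small RNA starts did not. Sites with the 5-mer include some in Cct6a, 1810058I24Rik and Gm20939, which RefSeq lists as protein-coding. Others share their window with a coding gene, such as Gm10076 with Rpl41 and 9230109A22Rik with Magi3. The part of such sites in the resemblance was not tested. Only the sense strand was searched, and the match is a description, with no test.

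**Figure D5:**
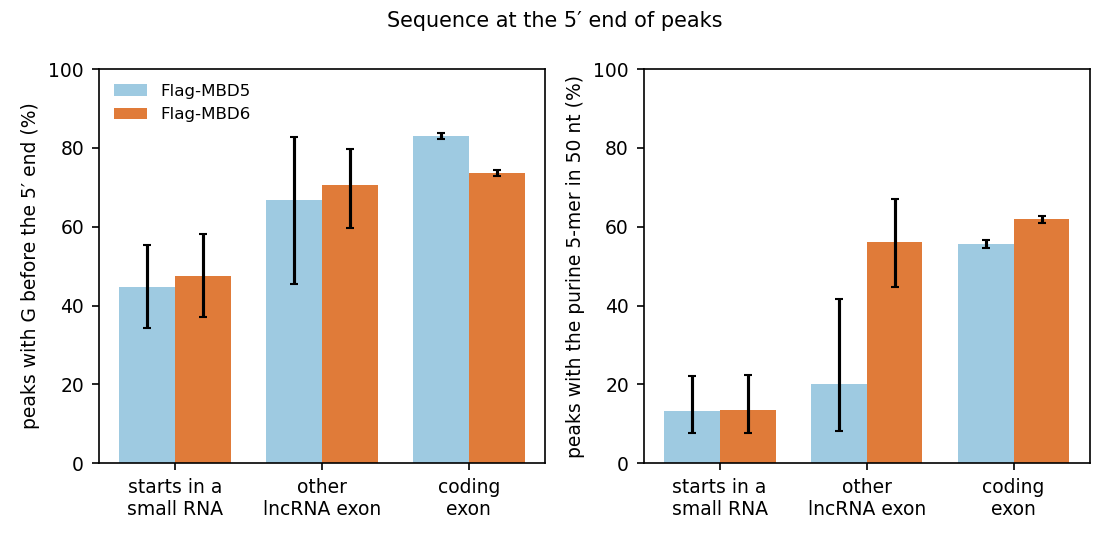
Left, percent of peaks with G before the 5′ end. Right, percent of peaks with the purine 5-mer in the 50 nt from the 5′ end. Bars are peaks that began in a small RNA, elsewhere on lncRNA exons or on coding exons for each protein, with 95% Wilson intervals. Small RNA starts are lowest in both panels, at 44.6% and 47.6% on the left and 13.3% and 13.4% on the right.

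LncRNA peaks held more reads than coding peaks in every library, with medians of 58.5 and 58 against 15 and 16 in Flag-MBD5 and 47 and 57 against 20 and 21 in Flag-MBD6. The log2 ratio of the medians was 1.91 for Flag-MBD5 and 1.34 for Flag-MBD6 (exact sign permutation, p = 0.5). Median reads were 63 and 78.5 at small RNA starts and 31 and 23 at other lncRNA starts, for Flag-MBD5 and Flag-MBD6 in turn. The solved background was higher too, at medians of 2.94 and 3.07 against 0.393 and 0.690 at coding peaks. Fold enrichment accordingly showed no common direction, with medians of 10.2 and 12 against 10.1 and 10.3 in Flag-MBD5 and 9.58 and 8.99 against 11.2 and 11.2 in Flag-MBD6. LncRNA peaks were 18.5 bp wider than coding peaks at the median in Flag-MBD5 and 11.5 bp in Flag-MBD6. The authors extended reads to 150 bp when calling peaks, so a peak width is not the length of bound RNA. Peaks on snoRNAs and scaRNAs outside lncRNA exons had median widths of 183 to 186 bp in the libraries. Median widths were 185 and 186.5 bp at small RNA starts, 171 and 166.5 bp at other lncRNA starts and 164 and 167 bp at coding starts. Without small RNA, rRNA and pseudogene exons the mean difference fell from 15 to 4.38 bp.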

How the data were processed

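Peak calls of 4 CLIP libraries, 2 per protein, were analysed out of 8 samples. Per the labels and methods, the authors collapsed identical reads, kept reads over 15 nt, removed rRNA, aligned to mm10 with Bowtie 1.0.0 (up to 10 places per read, 1 reported), split strands with SAMtools 1.16.1 and called peaks on each strand in each library with MACS2 at q of 0.01, keeping 5 reads per position. The labels name both a Flag and an MBD6 antibody for the CLIP. The deposited columns used are fold enrichment, a ratio to the local background, −log10 p and −log10 q. The deposited score, which restates q, was not used, and the deposited summit offset is in bp.

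Reads at the summit and background were solved from the fold and −log10 p of all 29555 peaks, and depth from the lowest background, in Python 3.11.15 with scipy 1.17.1. Exons came from GENCODE M21, and a small RNA took a RefSeq name where at least 0.7 of its length matched. Windows of 30 nt were searched in all transcripts with at most 3 mismatches. No genome sequence was used, so copies outside transcripts were not searched. A small RNA start has its base 15 nt inside in an exon of a GENCODE M21 small RNA. Intervals are 95% Wilson and cover counting error only. Code was tested on simulated data. The members, gene lists and alternatives were chosen with earlier results of these data known. Genes named are the best 20 by mean rank of fold among those with a site in 4 libraries, the best 5 regions per protein, the 3 with most sites, and the lists looked up; others were chosen after their values were seen.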

Additional observations from a re-analysis of the deposited data

Results flagged for a closer look

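Median fold enrichment of lncRNA peaks relative to coding peaks moved in opposite directions for the 2 proteins. The log2 ratio of the medians was 0.02 and 0.21 for Flag-MBD5, one value per library, against -0.22 and -0.32 for Flag-MBD6. The Flag-MBD6 minus Flag-MBD5 difference was -0.38. It stood out because both libraries of one protein lay above zero and both of the other below, and the difference was not tested, since each protein counts as 1 sample. The small RNA starts made up 84 of 119 lncRNA peaks with Flag-MBD5 and 84 of 178 with Flag-MBD6, with median folds of 13.3 and 11.1, and the median background at small RNA starts was 2.69 and 5.41. The part of either in the difference was not tested.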

How the results depend on the processing

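Of 111 recomputed values, leaving aside those without a library, 84 kept their direction and lay within their error, 24 moved and 3 reversed. Those kept include values of the replicate block, described below, that could not change. The Flag-MBD6 minus Flag-MBD5 share of peaks reversed to 0.12 percentage points with 5362 peaks per library, to 0.20 without small RNA, rRNA or pseudogene exons, and to 0.23 without peaks over a small RNA anywhere or rRNA-derived, an alternative chosen after seeing the data. The first of these 3 settings, which ranks peaks by significance, also gave 86.4% of Flag-MBD6 regions overlapped, a width difference of 9.75 bp and an A share difference of -10.6 points. Without small RNA, rRNA and pseudogene exons, 46 sites were left, and the difference in peaks found again was 5.21 points, regions overlapped 100% (Flag-MBD5) and 31.2% (Flag-MBD6), the log2 ratio of reads 0.55, width 4.38 bp, G before the 5′ end -8.68 points, A -2.78 points and the scaled log2 ratio -0.29. Under the added alternative, 42 sites were left, with 1.61 points, 100%, 20.7%, 0.60, 0.875 bp, -17.8 points, -3.77 points and -0.18 in the same order. These settings leave out sites by construction. Width fell to 9.63 bp with the position at the peak midpoint and 10.0 bp at the summit, and a fold of at least 4 gave 88.9% of Flag-MBD5 regions overlapped; the cause was not tested.

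Leaving out 1 library at a time gave a share difference of -0.18 to -0.14 points, Flag-MBD5 regions overlapped of 96.6 to 100%, Flag-MBD6 regions of 60.7 to 70.4%, log2 fold of -0.13 to -0.03, log2 reads of 1.57 to 1.68, width of 14.2 to 15.8 bp, G of -28.2 to -24.1 points, A of -9.47 to -9.34 points, a scaled ratio of -0.67 to -0.55 and 91 to 99 sites. The libraries share only a replicate number across proteins: same-numbered deviations correlated at 0.03 over 3566 sites and at 0.29 over the 54 lncRNA sites in 4 libraries. With the replicate block only the scaled ratio could change, and it went from -0.61 to -0.60. The other values were -0.16 (share), 14.9 (found again), -0.08 (fold), 1.62 (reads), 15 (width), -26.2 (G) and -9.41 (A). Found again was not paired, and the rest are means that pairing leaves the same by arithmetic. At this depth, a Flag-MBD5 lncRNA peak under 8 reads was not seen.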
